A study of Homo sapiens with 14 samples.

Results

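The respiratory chain and ATP synthase subunits are the proteins that make up the 5 enzyme complexes of oxidative phosphorylation in the inner mitochondrial membrane. The genes were chosen by symbol prefix in the platform annotation (NDUFA, NDUFB, NDUFC, NDUFS, NDUFV, SDHA to SDHD, UQCR, COX4 to COX8, ATP5F1, ATP5M and ATP5P), leaving out assembly factors, pseudogenes, antisense transcripts and readthrough genes. This gave 76 of 19775 genes with a probe set of their own: 33 of complex I, 3 of complex II, 6 of complex III, 17 of complex IV and 17 of complex V. A mean log2 level above 6.19, the median of all probe sets, was reached by 72 of them, and these were tested among 13137 genes. ATP5MF, COX7A1, COX7B2 and COX8C lay below that level. NDUFC2, NDUFS5, NDUFS8, UQCRH and UQCRHL had no probe set of their own, and the genes of mitochondrial DNA were not analysed here.

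The cells were HepG2, a human line derived from a liver tumour, transfected with miR-124, a small RNA abundant in neurons, or with a negative control. Each transfection had 7 arrays, 1 at each of 4, 8, 16, 24, 32, 72 and 120 h, and each value is a log2 level after RMA, the method that sets the arrays to 1 distribution. The log2 ratio of miR-124 over negative control was formed at each time, and averaged over an early (4 and 8 h), a middle (16, 24 and 32 h) and a late window (72 and 120 h). With 1 array per transfection and time, errors and p-values reflect nothing but the spread among these 14 arrays, which may be technical, and a value at 1 time has no test. Fewer cells of a kind and less messenger RNA per cell cannot be told apart, and a fall in all messenger RNA at once is not visible after RMA.

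Complex I takes electrons from NADH and complex II takes them from succinate, and both hand them to ubiquinone. Complex III passes them to cytochrome c and complex IV to oxygen. The protons that complexes I, III and IV move across the membrane drive complex V, the ATP synthase. Most subunits are encoded in the nucleus, imported, and joined to a few that mitochondrial DNA encodes. Hepatocytes are rich in mitochondria and make much of their ATP this way.

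The 8 hepatocyte markers analysed of a list of 10 were all above the filter, with mean levels from 10.9 to 13.9. Their summed signal on the linear scale ran from 73385 to 82594 on miR-124 arrays and from 74765 to 90502 on control arrays. Of 5 blood cell markers, 3 were analysed, and their summed signal was 450.5 to 963.8 with miR-124 and 417.2 to 497.6 in the control. The high end came from CD3D, which was 9.28 with miR-124 and 7.23 in the control at 72 h, while PTPRC, the marker that defines white blood cells, averaged 5.39 and lay below the filter. The 6 fibroblast and endothelial markers were all analysed, and their summed signal was 956.3 to 1105 with miR-124 and 893.2 to 986.3 in the control. None of these markers is listed at 0, and their part in the late results was not tested.

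Most subunit messages differed little between the transfections. Of the 72 genes, 71, 69, 66, 57, 65, 39 and 52 had a log2 ratio within 0.2 of zero at the 7 times in order. In percent these are 98.6, 95.8, 91.7, 79.2, 90.3, 54.2 and 72.2 of the members, against 83.5, 86.3, 75.7, 68.4, 64.2, 44.4 and 48.7 of all genes tested. The standard deviation of the ratio across members was 0.074, 0.076, 0.10, 0.14, 0.18, 0.35 and 0.20 at the 7 times. Across all genes it was 0.15, 0.15, 0.23, 0.30, 0.34, 0.61 and 0.43 at the same times. The members' spread was thus the smaller one at each of the 7 times. The members are also bright on these arrays, with a median level of 11.09, at the 94.0 percentile of the genes tested, and the part of brightness in the spread was not tested.

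At least 1.5-fold in either direction, no member differed at 4, 8, 16 or 24 h, where 0.358%, 0.419%, 2.63% and 5.21% of all genes did. At 32 h NDUFS3 and SDHD were past it, both lower, which is 2.78% of the members against 7.12% of all genes. At 72 h NDUFS3, SDHD and ATP5F1D were lower and UQCRC1 higher, 5.56% of the members against 23.4% of all genes. At 120 h no member was past 1.5-fold, and 13.3% of all genes were. Medians over the members stayed between −0.02 at 16 h and 0.09 at 24 h, and those over all genes between −0.02 at 4 h and 0.05 at 24 h.

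**Figure D1:**
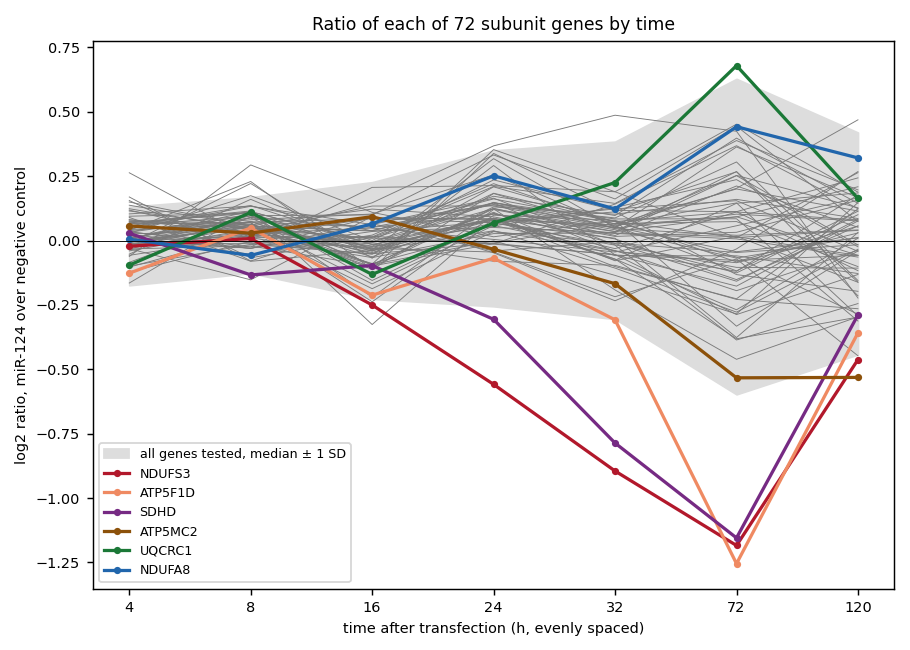
Log2 ratio of miR-124 over negative control (vertical) at 4 to 120 h (horizontal, evenly spaced) for the 72 subunit genes tested, 1 grey line each, with 6 coloured and named; the grey band is the median of all 13137 genes tested plus and minus 1 SD. NDUFS3, SDHD and ATP5F1D lie below the band at 32 h, ATP5F1D only just, and reach −1.15 to −1.25 at 72 h, and most lines stay within it.

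Across all 7 times, 0 of 72 members passed the limma test at an adjusted p under 0.05, against 0.913% of all genes. At an unadjusted p under 0.05 there were 11 members and 3413 of all 13137 genes. In the early window 0 members were called, 0 had an unadjusted p under 0.05, and 0% of all genes were called, with 163 of them at an unadjusted p under 0.05. In the middle window 0 members were called, while 7.83% of all genes were. An unadjusted p under 0.05 was reached there by 3 members and by 2716 of all 13137 genes. The late window had 10 members called, 13.9% of the 72, against 29.1% of all genes. Of these, 2 were higher, where 16.4% of all genes were, and 8 were lower, where 12.6% of all genes were. The median late change was −0.01 over the members and −0.01 over all genes. The change from the middle to the late window was called for 0 members and for 4.75% of all genes. Its unadjusted p was under 0.05 for 4 members and for 2560 of all 13137 genes.

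By complex, the late window had 2 higher and 3 lower of 33 complex I genes, 1 lower of 3 in complex II, 1 lower of 6 in complex III, 0 of 14 in complex IV and 3 lower of 16 in complex V. In percent, 15.2, 33.3, 16.7, 0 and 18.8 of the genes of complexes I to V were called. Of all genes tested, 29.1% were called in this window, 16.4% higher and 12.6% lower. In complex IV, 2 genes had an unadjusted p under 0.05, as did 5224 of all 13137 genes in this window. The median late changes of the complexes were 0.02, 0.06, −0.07, 0.04 and −0.02 in the same order. The RNA quality measures differed between the transfections at these times: the ACTB probe sets at the 3′ end exceeded those at the 5′ end by 0.357 with miR-124 and 0.237 in the control at 72 h, and by 0.411 with miR-124 and 0.102 in the control at 120 h. GAPDH showed an excess of 0.301 with miR-124 and 0.145 in the control at 72 h, and of 0.199 with miR-124 and 0.0311 in the control at 120 h. The part of RNA quality in the late calls was not tested.

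**Figure D2:**
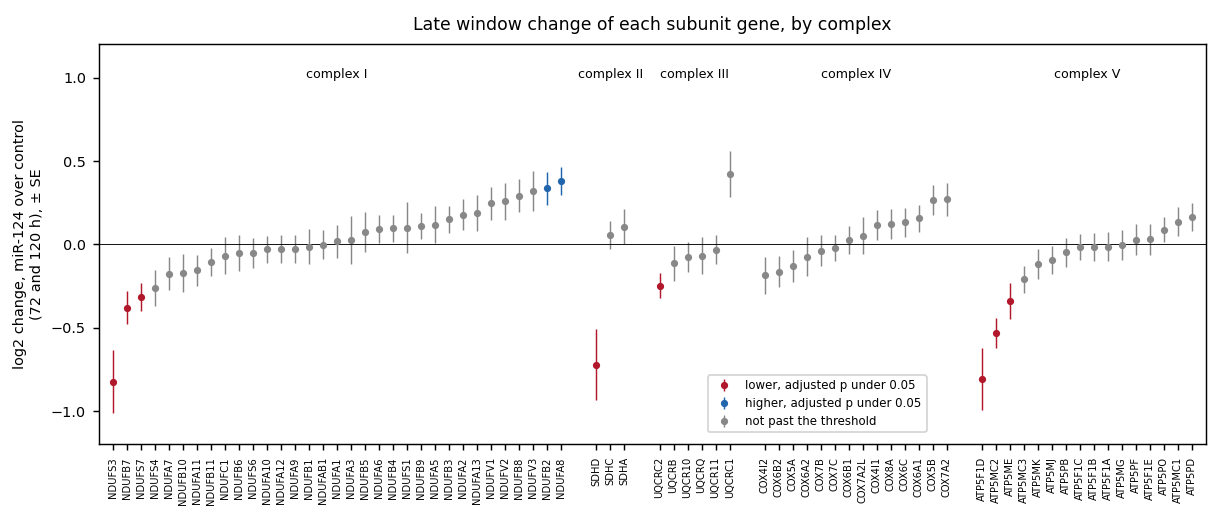
Log2 change in the late window (72 and 120 h, miR-124 over negative control, with SE; n = 2 pairs, spread from the fit over all 7 times) for each of the 72 genes, ordered within complexes I to V. The 8 genes lower (red) range from −0.82 to −0.25, the 2 higher (blue) are NDUFB2 and NDUFA8, and the grey genes did not pass the threshold.

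NDUFS3 is a core subunit of the Q module of complex I, the part that hands electrons to ubiquinone. Its levels with miR-124 were 9.89, 9.96, 9.61, 9.25, 8.94, 8.63 and 9.28 from 4 to 120 h, against 9.91, 9.95, 9.86, 9.81, 9.83, 9.82 and 9.74 in the control. From 16 h on every miR-124 level lay below the lowest control level, the gap was widest at 72 h, and it was narrower at 120 h. In the late window NDUFS3 fell 1.77-fold (log2 −0.82 ± 0.19, SE, n = 2 pairs, limma adjusted p = 0.0139). The middle window change was −0.57 ± 0.15 and missed the threshold (adjusted p = 0.0666), although it passed in a fit of the middle arrays alone (adjusted p = 0.0148) or without 72 h or 120 h (adjusted p = 0.00863 each).

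SDHD, a membrane anchor of complex II, also fell. SDHD levels were 10.50, 10.48, 10.42, 10.14, 9.76, 9.36 and 10.08 with miR-124, against 10.47, 10.61, 10.52, 10.45, 10.54, 10.51 and 10.37 in the control. At 24 h and later the miR-124 levels lay below the whole control range. The late change was −0.72 ± 0.21 (n = 2 pairs, limma adjusted p = 0.0383), a 1.65-fold fall. In the middle window it was −0.40, which did not pass. A second SDHD probe set, below the filter, had a late mean ratio of −0.13, and the mean of both gave a late change of −0.43 ± 0.11 (adjusted p = 0.029). SDHA, the catalytic flavoprotein of the same complex, had 10.05 to 10.20 with miR-124 and 9.96 to 10.21 in the control, with overlapping ranges and a late change of 0.11 ± 0.10 (adjusted p = 0.506).

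ATP5F1D encodes the delta subunit of the central stalk, which turns inside the catalytic head of complex V. It had 9.98, 9.95, 9.74, 9.68, 9.53, 8.77 and 9.44 with miR-124, against 10.11, 9.90, 9.96, 9.75, 9.84, 10.03 and 9.80 in the control. From 16 h the miR-124 levels lay below the lowest control level, barely so at 16 h, and the 72 h array was far below the others. The late change was −0.81 ± 0.18 (n = 2 pairs, limma adjusted p = 0.0139), a 1.75-fold fall. The second ATP5F1D probe set ran alike, with ratios of −0.90 at 72 h and −0.32 at 120 h and a late change of −0.61 ± 0.15. The other genes of the catalytic head and central stalk did not pass: ATP5F1A, ATP5F1B, ATP5F1C and ATP5F1E had ratios between −0.13 and 0.07 at 72 h. ATP5F1C also had a dim probe set, 214132_at, that ran otherwise, with ratios of 0.81 at 72 h and 0.95 at 120 h and a late change of 0.88 ± 0.11 (limma adjusted p = 0.00162 over all probe sets). Its 3 bright probe sets had late changes from −0.05 to 0.01, and the mean of all 4 was called higher, at 0.21 ± 0.06 (adjusted p = 0.0469).

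**Figure D3:**
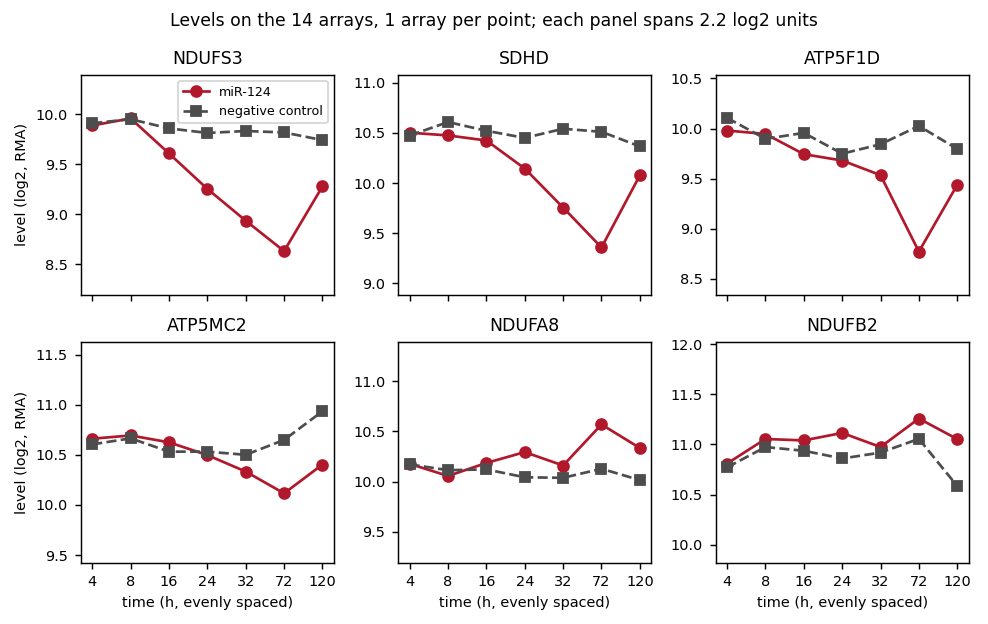
Log2 level (vertical, each panel spanning 2.2 log2 units) on each of the 14 arrays by time (horizontal, evenly spaced) for 4 genes that fell and 2 that rose in the late window; circles are miR-124 and squares the negative control. NDUFS3, SDHD and ATP5F1D dip to 8.63, 9.36 and 8.77 with miR-124 at 72 h and lie closer to the control at 120 h.

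ATP5MC2 is 1 of 3 genes for the same mature c subunit, the protein of the ring through which protons pass in complex V. Its levels were 10.66, 10.69, 10.62, 10.50, 10.33, 10.12 and 10.40 with miR-124, against 10.60, 10.66, 10.53, 10.53, 10.50, 10.65 and 10.93 in the control. The ratios at 72 and 120 h were both −0.53, reached at 72 h by a low miR-124 level and at 120 h by a high control level. ATP5MC2 had the smallest adjusted p of the members in the late window (log2 −0.53 ± 0.09, n = 2 pairs, limma adjusted p = 0.00376). A second ATP5MC2 probe set, below the filter, had a late mean ratio of −0.07, and the mean of both gave −0.30 ± 0.06 (adjusted p = 0.0133). ATP5MC2 was also the member whose ratio slope passed, at −0.14 ± 0.03 per doubling of time (adjusted p = 0.0418), with 1 of 72 members and 8.58% of all genes called. The slope missed the threshold whichever time was left out (adjusted p = 0.0655 to 0.102). With all times, 8 members, ATP5MC2 among them, had an unadjusted p under 0.05 for the ratio slope, as did 3403 of all 13137 genes.

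The other c subunit genes did not pass in the late window by the fit used here. ATP5MC3 had late ratios of −0.29 at 72 h and −0.13 at 120 h and a late change of −0.21 ± 0.08 that missed the threshold (adjusted p = 0.0911). It was called lower with a trended prior (limma adjusted p = 0.0289). The mean of its 3 probe sets was also called lower, at −0.36 ± 0.07 (adjusted p = 0.012). Its dim probe set 228168_at had a late change of −0.60 ± 0.13 (adjusted p = 0.0137 over all probe sets). ATP5MC1 had ratios of 0.21, 0.21 and 0.19 at 16, 24 and 32 h, 0.01 at 72 h and 0.26 at 120 h, with a late change of 0.14 ± 0.09 (adjusted p = 0.297). Differences between these genes were not tested.

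Smaller falls passed in 4 further genes. NDUFB7, an accessory subunit of the distal membrane arm of complex I, had ratios of −0.46 at 72 h and −0.30 at 120 h (late change −0.38 ± 0.10, limma adjusted p = 0.0244). Its 7 levels ran from 8.40 to 8.86 with miR-124 and from 8.58 to 9.01 in the control, so the ranges overlap. NDUFS7, which carries an iron-sulfur cluster next to the ubiquinone site, changed by −0.32 ± 0.08 (adjusted p = 0.0227), or by −0.20 with the mean of its probe sets (adjusted p = 0.0492). ATP5ME, a membrane subunit that joins ATP synthase dimers, changed by −0.34 ± 0.11 (adjusted p = 0.0469). UQCRC2, a core protein of complex III, changed by −0.25 ± 0.08 (adjusted p = 0.0459).

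Both late rises were in accessory subunits of the membrane arm of complex I. NDUFA8, of the proximal arm, had 10.18, 10.06, 10.19, 10.29, 10.16, 10.57 and 10.33 with miR-124, against 10.17, 10.11, 10.12, 10.04, 10.04, 10.13 and 10.01 in the control. The 4, 16, 24, 72 and 120 h levels with miR-124 stood above every control level, barely so at 4 and 16 h. The late change was 0.38 ± 0.09 (n = 2 pairs, limma adjusted p = 0.0131), a 1.30-fold rise. NDUFB2, of the distal arm, had 10.81, 11.05, 11.04, 11.11, 10.97, 11.26 and 11.05 with miR-124, against 10.77, 10.97, 10.94, 10.86, 10.92, 11.06 and 10.58 in the control. It was higher with miR-124 at each of the 7 times, the widest gap came from a low control level at 120 h, and the late change was 0.34 ± 0.10 (adjusted p = 0.0336).

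The late calls depended on the 72 h pair. With 72 or 120 h left out the late window is a single pair, which is assumed to vary as the other times do. Without 72 h, 3 members were called (4.17%, against 23.2% of all genes): ATP5MC2 at −0.53 (adjusted p = 0.0143), NDUFB2 at 0.47 (adjusted p = 0.0189) and NDUFS4, an accessory subunit of the N module of complex I, at −0.45 (adjusted p = 0.0232), the last named after its values were seen. NDUFS3 was then −0.46 (adjusted p = 0.112), SDHD −0.29 (adjusted p = 0.345), ATP5F1D −0.36 (adjusted p = 0.069), NDUFA8 0.32 (adjusted p = 0.0696), NDUFB7 −0.30 (adjusted p = 0.133) and NDUFS7 −0.24 (adjusted p = 0.123). Without 120 h, 16 members were called, 9 higher and 7 lower (22.2%, against 37.2% of all genes). Without 24 h there were 5 (6.94%, against 21.8%), and without 4 h or 8 h 6 each (8.33%, against 24.7%). Without 16 h there were 8 (11.1%, against 25.9%) and without 32 h 7 (9.72%, against 23.9%). SDHD was lost without 4, 8 or 24 h too, and NDUFS7 without 24 h. NDUFB2 missed the threshold without any 1 of the other times (adjusted p = 0.0556 to 0.203), ATP5ME passed only without 16 h, and UQCRC2 missed it whichever time was left out.

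The start regions of 4 of these genes are shown because they are the ones lowest in complexes I and II and both that rose. Each window runs from 250 bases before to 50 bases after the RefSeq start in GRCh38.p14, on the strand of the gene. Capitals mark, on either strand, the letters GCGCANGCG (an NRF1-type motif), CCGGAAG (an ETS-type motif) and AANATGGCG (a YY1-type motif). NRF1, the ETS factor GABP and YY1 are transcription factors known from work on nuclear respiratory genes. Where matches overlap, the capitals run together.
SDHD (chr11:112086623-112086922, plus strand): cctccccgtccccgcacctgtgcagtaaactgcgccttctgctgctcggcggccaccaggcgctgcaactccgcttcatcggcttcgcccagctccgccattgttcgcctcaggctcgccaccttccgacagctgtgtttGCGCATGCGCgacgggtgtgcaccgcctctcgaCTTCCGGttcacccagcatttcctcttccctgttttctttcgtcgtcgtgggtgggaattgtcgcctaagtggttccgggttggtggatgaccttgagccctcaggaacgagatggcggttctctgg
NDUFS3 (chr11:47578824-47579123, plus strand): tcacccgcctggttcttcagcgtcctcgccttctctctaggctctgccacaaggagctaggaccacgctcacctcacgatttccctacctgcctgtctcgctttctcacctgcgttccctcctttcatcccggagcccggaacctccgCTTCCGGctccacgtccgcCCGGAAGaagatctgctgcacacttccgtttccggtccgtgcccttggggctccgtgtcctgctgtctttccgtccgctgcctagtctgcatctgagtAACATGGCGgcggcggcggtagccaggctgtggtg
NDUFA8 (chr9:122159730-122160029, minus strand): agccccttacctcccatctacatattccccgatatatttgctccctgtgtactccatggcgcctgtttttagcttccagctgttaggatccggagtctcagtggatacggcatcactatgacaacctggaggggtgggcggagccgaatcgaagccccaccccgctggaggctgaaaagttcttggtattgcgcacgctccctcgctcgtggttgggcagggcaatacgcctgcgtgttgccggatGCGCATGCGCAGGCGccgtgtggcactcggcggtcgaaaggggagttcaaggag
NDUFB2 (chr7:140696458-140696757, plus strand): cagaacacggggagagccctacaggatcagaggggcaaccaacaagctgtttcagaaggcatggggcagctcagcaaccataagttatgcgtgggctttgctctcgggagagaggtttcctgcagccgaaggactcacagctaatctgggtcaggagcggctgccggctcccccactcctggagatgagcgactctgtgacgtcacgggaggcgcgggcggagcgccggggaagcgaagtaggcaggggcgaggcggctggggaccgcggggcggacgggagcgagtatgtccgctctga
The SDHD window holds the NRF1-type letters on both strands, first at base −110, and the ETS-type letters at −77. NDUFS3 holds ETS-type letters at −102 and −83 and YY1-type letters at 16 past the start, with no NRF1-type letters in this window. NDUFA8 holds NRF1-type letters across its start, first at −4, and NDUFB2 holds none of the 3 in this window.

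Of the 76 members, 65 had such a window in the RefSeq table. The NRF1-type letters were in 23 of the 65 (35.4%), against 12.5% of 15842 protein-coding genes with a window and 16.2% of the 9957 of these that were tested. The YY1-type letters were in 14 (21.5%), against 5.59% and 7.74%, and the ETS-type letters in 19 (29.2%), against 16.5% and 21.1%. Among the 9 late called members with a window, 5 held NRF1-type, 4 ETS-type and 2 YY1-type letters. These are counts of letters and were not tested.

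Complex I can be followed by module, as grouped here from general knowledge. The N module takes electrons from NADH. Late, 0 of its 9 genes were called, against 29.1% of all genes. In this module 4 genes had an unadjusted p under 0.05, as 5224 of all 13137 genes did. Its core genes NDUFV1, NDUFV2 and NDUFS1 and the accessory NDUFV3 had ratios of 0.37, 0.44, 0.42 and 0.45 at 72 h, against 0.12, 0.07, −0.22 and 0.19 at 120 h. Each was higher at 72 h and their late changes were 0.25 ± 0.10, 0.26 ± 0.11, 0.10 ± 0.15 and 0.32 ± 0.12 (adjusted p = 0.0972, 0.122, 0.677 and 0.0832). These 4 are the highest of the module at 72 h. Of the other 5, NDUFA2 had a ratio of 0.11 at 72 h, and NDUFA7, NDUFS4, NDUFA12 and NDUFS6 had −0.06, −0.07, −0.09 and −0.18. Over the 9 genes, 5 late changes were above zero and 4 below, from −0.26 to 0.32. With the mean of its probe sets, NDUFA7 was called lower late, at −0.25 ± 0.06 (limma adjusted p = 0.0233).

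The Q module had 2 of 3 genes lower late, NDUFS3 and NDUFS7, where 12.6% of all genes were, and NDUFA5 did not pass. Its median ratio was −0.23 at 32 h, −0.39 at 72 h and −0.24 at 120 h, and that of the N module 0.12, 0.11 and 0.07. NDUFS1, the large iron-sulfur protein of the N module, had ratios of 0.15, 0.37 and 0.49 at 16, 24 and 32 h. Its levels with miR-124 stayed between 9.69 and 10.00, against 9.42 to 10.00 in the control, so the ratio followed low control levels at 32 and 72 h (9.42 each). The middle change of NDUFS1, 0.33, was the highest among the members and passed in a fit of the middle arrays alone (adjusted p = 0.0281). The difference between the modules was not tested.

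UQCRC1, a core protein of complex III beside UQCRC2, had 10.88, 10.91, 10.88, 11.07, 11.14, 11.72 and 11.38 with miR-124, against 10.97, 10.80, 11.02, 11.00, 10.91, 11.04 and 11.21 in the control. The 72 h miR-124 array was above all control arrays and gave a ratio of 0.68, and at 120 h the ratio was 0.16. The late change of 0.42 ± 0.14 was the highest of the 72 members and missed the threshold (adjusted p = 0.0553). UQCRC2 had 11.75 to 11.99 with miR-124 and 11.89 to 12.08 in the control, with ratios of −0.23 at 72 h and −0.26 at 120 h.

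Complex IV holds pairs of genes in which 1 is widespread and the other is known from particular tissues. COX4I1 had 12.25 to 12.65 with miR-124 and 12.28 to 12.48 in the control, and COX4I2, known from lung and low oxygen, had 6.27 to 6.73 with miR-124 and 6.44 to 6.66 in the control. Late changes were 0.12 ± 0.09 for COX4I1 (limma adjusted p = 0.387) and −0.19 ± 0.11 for COX4I2 (adjusted p = 0.266), neither past the threshold. COX6A1 had 12.25 to 12.67 with miR-124 and 12.17 to 12.47 in the control, and COX6A2, known from heart and muscle, had 6.10 to 6.48 with miR-124 and 6.20 to 6.45 in the control.

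COX6B1 ran from 10.79 to 10.93 with miR-124 and from 10.74 to 10.87 in the control, and the testis gene COX6B2 from 6.56 to 6.80 with miR-124 and from 6.58 to 6.92 in the control. Late changes were 0.16 ± 0.08 for COX6A1, −0.07 ± 0.12 for COX6A2, 0.03 ± 0.09 for COX6B1 and −0.16 ± 0.09 for COX6B2, and none passed (adjusted p = 0.19, 0.691, 0.861 and 0.237). COX7A2 had 11.96 to 12.36 with miR-124 and 11.80 to 12.15 in the control, with the highest late change of complex IV, 0.27 ± 0.10 (adjusted p = 0.0793). The other late changes were 0.05 ± 0.11 for COX7A2L, −0.04 ± 0.09 for COX7B and 0.12 ± 0.09 for COX8A (adjusted p = 0.768, 0.807 and 0.361).

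The muscle gene COX7A1 and the testis genes COX7B2 and COX8C were not tested. COX7A1 lay between 5.25 and 5.62 with miR-124 and between 5.25 and 5.61 in the control. COX7B2 lay between 5.07 and 5.47 with miR-124 and between 5.10 and 5.45 in the control. COX8C lay between 3.50 and 3.73 with miR-124 and between 3.54 and 3.81 in the control. The transfections overlapped in each of these genes. Levels of different probe sets are not set against each other.

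In complex V the peripheral stalk, which holds the catalytic head still, had 0 of 4 genes called late, against 29.1% of all genes. An unadjusted p under 0.05 was reached by 0 of the 4 and by 5224 of all 13137 genes. The bright ATP5PB probe set used here had ratios of −0.15 at 72 h and 0.06 at 120 h, with a late change of −0.05. With the mean of its 2 probe sets, ATP5PB was called higher, at 0.28 ± 0.08 (limma adjusted p = 0.0409). The second ATP5PB probe set, below the filter, had a late mean ratio of 0.60. With 1 probe set per gene, ATP5PD had the highest late change of the complex, 0.16 ± 0.08 (adjusted p = 0.176). Its levels were 12.17 to 12.48 on miR-124 arrays and 12.16 to 12.30 on control arrays. Of 4 other membrane subunits, ATP5ME was lower and 0 were higher, where 12.6% and 16.4% of all genes were. All 4 late changes were below zero, with a median of −0.10. ATP5ME had ratios of 0.07, 0.11, −0.33, 0.09, −0.07, −0.38 and −0.30 from 4 to 120 h, so its ratio had no steady course.

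Levels within each transfection were followed as slopes on the doubling of time. In the miR-124 arrays 6 of 72 members (8.33%) had a slope, 4 up and 2 down, against 21.7% of all genes. The steepest rises were UQCRC1 at 0.15 ± 0.04, NDUFV3 at 0.14 ± 0.04 and NDUFA13 at 0.11 ± 0.03 per doubling (n = 7 arrays, limma adjusted p = 0.0337, 0.0366 and 0.0277). COX7A2 rose by 0.084 ± 0.023 (adjusted p = 0.0367), and the falls were NDUFS3 at −0.23 ± 0.06 and ATP5F1D at −0.19 ± 0.05 (adjusted p = 0.0391 and 0.0415). NDUFA13, a membrane-arm subunit of complex I, had 10.80 to 11.34 with miR-124 and 10.86 to 11.20 in the control, and was highest at 72 and 120 h in both.

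In the control arrays 1 member had a slope, against 8.18% of all genes. COX7A2L, a protein that links complexes III and IV, rose by 0.077 ± 0.016 per doubling (limma adjusted p = 0.0282). Its levels from 4 to 120 h were 11.28, 11.46, 11.50, 11.55, 11.57, 11.86 and 11.51 with miR-124, against 11.28, 11.37, 11.45, 11.44, 11.54, 11.59 and 11.68 in the control. Without 8 h no member slope passed in the miR-124 arrays, and without 4, 8, 16, 24 or 72 h none passed in the control. In the control COX7A2L still passed without 32 h. Without 120 h it did not, and NDUFS1 passed instead, at −0.154 ± 0.029 per doubling (limma adjusted p = 0.028). The calls of slopes thus depended on single arrays.

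Some genes carried probe sets with different courses. Of 148 probe sets for the members, 118 were above the filter, and 43 members had more than 1 probe set. Among 27 members with several above the filter, the late change had the same sign in all for 16. Testing each probe set alone among 22875, 20 for 18 members were called late, 7 higher and 13 lower (against 27.2% of all probe sets), and 3 for 2 members in the middle window (against 6.65% of all probe sets). The 2 members of the middle window were SDHC and ATP5MC3, both lower. The highest late calls were in dim probe sets, 214241_at of NDUFB8 at 0.96 ± 0.13 (limma adjusted p = 0.00235 over all probe sets) and the dim ATP5F1C probe set given above. The brighter NDUFB8 probe sets had 0.29 ± 0.10 and 0.19 ± 0.10, neither called, and the mean of the 3 was called higher, at 0.48 ± 0.09 (adjusted p = 0.00639). These genes are named after their values were seen.

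SDHC, the other membrane anchor of complex II, had 7 probe sets. The one used here had 10.35 to 10.55 with miR-124 and 10.30 to 10.43 in the control, and a late change of 0.06 ± 0.08 (adjusted p = 0.676). Its dimmer probe set 238056_at had ratios of −0.15, −0.19, −0.43, −0.59, −0.57, −0.55 and −0.56 from 4 to 120 h, with a middle change of −0.53 ± 0.07 (limma adjusted p = 0.00752 over all probe sets). Another, 238191_at, had a middle change of −0.63 ± 0.15 (adjusted p = 0.0466). The 4 brightest SDHC probe sets, the one used here among them, ran within 0.18 of zero. ATP5MC3 had a similar split: its bright probe sets were at −0.02 and −0.00 in the middle window and 228168_at at −0.52 ± 0.11 (adjusted p = 0.0343). Which transcripts these dim probe sets read was not tested.

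**Figure D4:**
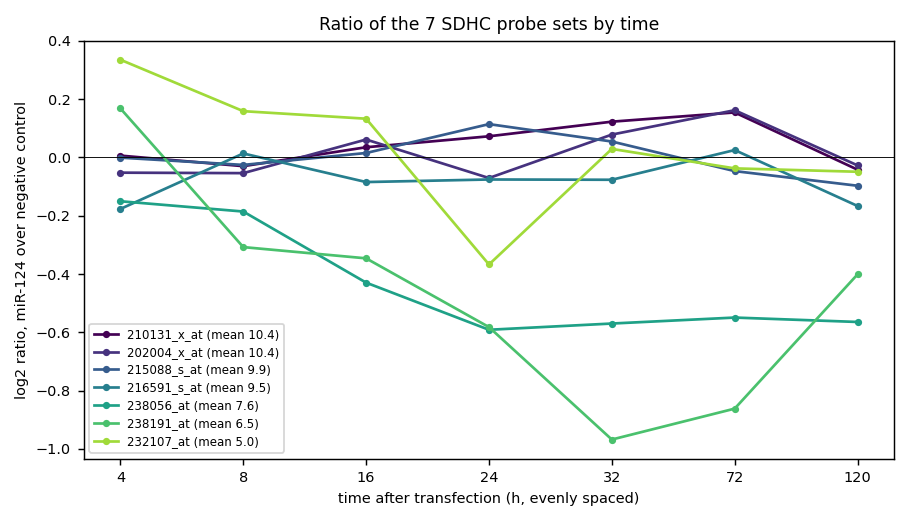
Log2 ratio of miR-124 over negative control (vertical) by time (horizontal, evenly spaced) for the 7 probe sets annotated to SDHC, with their mean log2 level in brackets. The 4 brightest stay within 0.18 of zero, while 238056_at and 238191_at run at −0.35 to −0.97 from 16 h.

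NDUFV3 and UQCRC2 had probe sets that disagreed in sign by over 0.2. For NDUFV3 the bright probe set had a ratio of 0.45 at 72 h and the dim one −0.40, with late changes of 0.32 ± 0.12 and −0.29 ± 0.10. For UQCRC2 the bright probe sets had late changes of −0.25 ± 0.08 and −0.36 ± 0.10, and one below the filter 0.50. Averaging all probe sets of a gene left UQCRC2 at −0.04 (adjusted p = 0.778).

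Genes around the complexes were counted in lists written from general knowledge. Of 47 assembly factors tested, 11 were higher and 4 lower in the late window (31.9%, against 29.1% of all genes). COA1, a factor for early complex IV assembly, rose by 0.87 ± 0.08, and NUBPL, which delivers iron-sulfur clusters to complex I, by 0.77 ± 0.11 (limma adjusted p = 0.000387 and 0.00204). COX16, of complex IV assembly, was at −0.78 ± 0.19, and TIMMDC1, of complex I assembly, at −0.55 ± 0.11 (adjusted p = 0.0169 and 0.0068). In the middle window 2 of the assembly factors were higher and 1 lower (6.38%, against 7.83% of all genes).

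Of 19 genes for cytochrome c, coenzyme Q and electron entry, 3 were higher and 4 lower late (36.8%, against 29.1% of all genes). CYC1, the cytochrome c1 of complex III, which the prefix rule does not take in, fell to −0.62 ± 0.12, and ETFB, which feeds electrons from fatty acid oxidation, to −0.97 ± 0.09 (limma adjusted p = 0.00624 and 0.000471). The coenzyme Q genes COQ10B and COQ8A were at 0.72 ± 0.12 and 0.58 ± 0.11. Of 16 genes of the TCA cycle and pyruvate dehydrogenase, 3 were higher and 1 lower (25%, against 29.1% of all genes). Among them were IDH2 at 1.11 ± 0.16, SUCLA2 at 0.36 ± 0.08 and SUCLG2 at −2.34 ± 0.34.

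The mitochondrial ribosome makes the subunits encoded in mitochondrial DNA, and 3 of its 75 genes were higher and 22 lower late (33.3%), with a median of −0.23. Of all genes tested, 29.1% were called late, 16.4% higher and 12.6% lower, with a median of −0.01. MRPL17 and MRPL49 were lowest, at −0.62 ± 0.15 and −0.60 ± 0.12, and MRPL27 and MRPL33 highest, at 0.50 ± 0.10 and 0.42 ± 0.09. In the middle window 1 of the 75 was called (1.33%, against 7.83% of all genes), MRPL49 at −0.63. Of 22 import genes, 3 were higher and 4 lower (31.8%), with TOMM40L at 0.89 ± 0.14, TOMM34 at 0.85 ± 0.11 and TIMM13 at −0.72 ± 0.13; TIMMDC1 is also in this list. Of 17 genes for ATP export and cristae shape, 2 were higher and 3 lower (29.4%), with APOOL at 0.52 ± 0.12, CHCHD6 at 0.39 ± 0.09, APOO at −0.62 ± 0.12 and VDAC2 at −0.59 ± 0.11. Of 25 regulators of mitochondrial gene expression and biogenesis, 0 were higher and 1 lower (4%), LRPPRC, which stabilises mitochondrial messenger RNA, at −0.26 ± 0.08 (adjusted p = 0.045).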

How the data were processed

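HepG2 total RNA from 7 miR-124 and 7 negative control transfections was measured on one-colour arrays. The deposited values are log2 levels per probe set, which, per the submitters' processing notes, the authors obtained by RMA; no version is given in the sources used here. Values from 2.93 to 14.4 with none missing fit a log2 scale. Arrays have no depth, and their number limits the precision. Of 54675 probe sets, 62 were controls and 41091 had 1 gene symbol. Each gene was represented by its brightest probe set, by mean over 14 arrays, with a filter at the median of all probe sets, 6.19.

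Tests used limma 3.58.1 in R 4.3.3 (lmFit and eBayes, two-sided, Benjamini-Hochberg over all 13137 genes). The overall fit had time as a block (6 residual degrees of freedom), and 1 fit gave the windows and their difference (4). Slopes per doubling of time had 5. The labels pair arrays by time, and deviations from group means correlated at 0.21 to 0.48 within pairs. No 2 arrays were identical, and correlations between arrays ran from 0.904 to 0.997. Scripts were tested on simulated data. Plots used matplotlib 3.10.9 (Python 3.11.15), and promoter windows came from RefSeq. Errors with ± are standard errors.

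Named genes were the 5 lowest and highest called members per comparison, the lowest and highest late change per complex, the 3 steepest called slopes each way, tissue isoforms, members whose probe sets disagree, and the 2 lowest and highest late calls per list; other members named (such as the c subunit, N module and SDHC genes) were chosen after their values were seen. The members and lists were chosen with earlier results of these data known, and the complex modules after seeing values. Alternatives were no filter, the mean of a gene's probe sets, arrays centred, a trended prior, each time left out, no time block, windows on their own arrays, and, added after seeing the data, every probe set.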

Additional observations from a re-analysis of the deposited data

Results flagged for a closer look

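Among the 7 ratios of each named member, 3 genes had a value far from the others. Chance alone flags about 1 in 20 such groups if the 7 values are independent draws from 1 normal distribution. The ratios here are times in order, so that rate need not hold. Some members, such as ATP5F1D, were also named for late changes that use the same values. The ATP5F1D ratio at 72 h was −1.255, with the nearest other ratio at −0.36. The COX4I1 ratio at 72 h was 0.2519, with the nearest other at 0.06. The COX7B2 ratio at 32 h was −0.3063, with the nearest other at −0.07, in a gene below the filter on low levels. The course of ATP5MC2 differed between the transfections by the test of the ratio slope, −0.14 per doubling of time (limma adjusted p = 0.0418).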

How the results depend on the processing

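The overall count of members called stayed 0 under all 12 alternatives, including the fit with no replicate block (0 members, 328 of all genes against 120 with it), and the early count stayed 0. The middle count of 0 became 2 on the window's own arrays, 2 over every probe set, and 0 to 3 with 1 time left out. The late count of 10 became 16 with the mean of a gene's probe sets, 18 over every probe set, 0 on the window's own arrays (469 of all genes) and 3 to 16 with 1 time left out. Of the 12 late alternatives on genes (the window's own arrays in place of no time block), ATP5MC2 passed in 11, NDUFS3, ATP5F1D, NDUFA8 and NDUFB7 in 10, NDUFS7 in 9, SDHD in 7, NDUFB2 in 5, ATP5ME in 4 and UQCRC2 in 2. The difference between windows had 0 members called, 1 with no filter (ATP5MC2) and 0 to 4 with 1 time left out. The control slopes gave 0 to 1 with 1 time left out, and the miR-124 slopes 0 to 7, and 10 with the mean of probe sets. The ratio slope count of 1 became 0 with the mean of probe sets, 0 with a trended prior and 0 to 3 with 1 time left out. No late call changed sign under these 12, and 35 of the 62 uncalled late changes did under at least 1. Among members with a printed late change these were NDUFS1 (−0.223 to 0.424 over the times left out), SDHC (−0.0418 to 0.155), SDHA (−0.0243 to 0.236), COX7A2L (−0.162 to 0.268), COX4I1 (−0.0171 to 0.252), COX6A2 (−0.293 to 0.146), COX7B (−0.158 to 0.0824, and 0.0544 with the mean of probe sets) and COX6B1 (−0.00855 with arrays centred). ATP5F1C (−0.0435 to 0.0102) and ATP5PB (−0.152 to 0.0567) turned too. With the mean of probe sets both were called higher, at 0.207 and 0.277. The causes were not tested, apart from the fewer arrays in the fits that leave some out.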
